A study of Mus musculus with 14 samples.

Results

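The genes described here move zinc across membranes or hold it inside the cell. They are the importers of the Slc39a (ZIP) family, the exporters of the Slc30a (ZnT) family with Tmem163, the metallothioneins Mt1 to Mt4, and the metal-sensing transcription factor gene Mtf1. Members were chosen by gene symbol alone. Of 30 genes sought, 28 had probes on the array, 51 probes of 32034 with a single gene name, and Slc39a2 and Tmem163 were not analysed here. Probes with a detection p below 0.05 on 3 or more of the 14 arrays were taken as expressed. That left 33 probes of 24 genes, out of 11786 genes in all: 11 of 13 importers, 8 of 10 exporters, 4 metallothioneins and Mtf1.

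Zinc is a structural or catalytic part of many proteins, and its free level in the cytosol is kept very low. ZIP proteins carry zinc into the cytosol from outside or from organelles, and ZnT proteins carry it out or into vesicles. Metallothioneins are small cysteine-rich proteins that bind the surplus, and Mtf1, when it binds zinc, switches on Mt1, Mt2 and the exporter gene Slc30a1. In brain, astrocytes are a main site of metallothionein expression, Mt3 is the form enriched in neural tissue, and Slc30a3 fills the synaptic vesicles of some glutamatergic neurons with zinc.

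The 14 samples were primary glioblastomas of mice of mixed background, 1 tumour per array. Type 1 tumours (n = 7) arose in Nestin-CreERT2 mice and Type 2 tumours (n = 7) in NG2-CreERTM mice. In both types the floxed alleles included Trp53 (f/f) and Nf1 (f/+), with a Rosa-lsl-tdTom reporter. All mice were 6 to 8 weeks old when they received tamoxifen once by mouth (10 mg for each 20 g of weight), and were kept until they showed symptoms. The promoter of nestin or of NG2 decides which cells carry active Cre, and a frozen piece of tumour also holds host cells. Both drivers were compared to see how expression differs between the tumours they give rise to.

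Batch 1 held Type 1 replicates 1 to 3 and Type 2 replicates 1 to 4, and batch 2 the others. No chip of the 5 carried both types, so chip and type cannot be told apart. Between 19299 and 20868 probes were detected per array, and the number of arrays limits the precision. Type 1 replicate 1 and Type 2 replicate 5 stood apart by choroid plexus markers, whose mean log2 signal was 9.52 and 7.64 in them and at most 6.61 in the other tumours. The astrocyte markers Gfap and Aqp4 were detected on 7 of 7 arrays of each type. All values below are normalized log2 signals, and differences are Type 1 minus Type 2. A level is not compared between genes, since probes differ in brightness.

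Among the 24 expressed genes, Slc39a12 was higher in Type 1 and no other gene passed the test between the types. It encodes ZIP12, a zinc importer of the plasma membrane that is abundant in brain. Its log2 signals in Type 1 replicates 1 to 7 were 10.29, 9.99, 13.32, 11.14, 10.67, 10.06 and 9.78. In Type 2 replicates 1 to 7 they were 8.08, 8.72, 7.18, 5.98, 6.66, 9.27 and 9.06. All 7 Type 1 tumours lay above all 7 Type 2 tumours, with Type 1 replicate 3 far above the rest and Type 2 replicate 4 the lowest.

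The mean of Slc39a12 was 10.75 ± 1.23 in Type 1 and 7.85 ± 1.27 in Type 2 (SD, n = 7 each). The difference was 2.90 ± 0.62 (SE; limma adjusted p = 0.0212), which is 7.44-fold (95% confidence interval 2.96 to 18.7, not adjusted over genes). By this test 274 of 11786 genes (2.32%) were higher in Type 1 and 547 (4.64%) differed in either direction, so 1 of 24 members is near the background. At an adjusted p under 0.1 there were 3 members, beside 9.63% of all genes. Slc39a12 was the only member whose types did not overlap, which held for 1.23% of all genes (0.628% with Type 1 above). The difference was 3.71 in batch 1 (limma adjusted p = 0.0867) and 2.08 in batch 2 (limma adjusted p = 0.136), so neither batch alone called it. The single-batch tests called 1.41% of all genes in batch 1 and 1.04% in batch 2. Without the 2 tumours high in choroid plexus markers it was 2.71 and lost its call (limma adjusted p = 0.0831), in a fit that called 106 genes. With each tumour left out in turn it ranged from 2.33 to 3.20 and passed 14 times of 14.

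**Figure D1:**
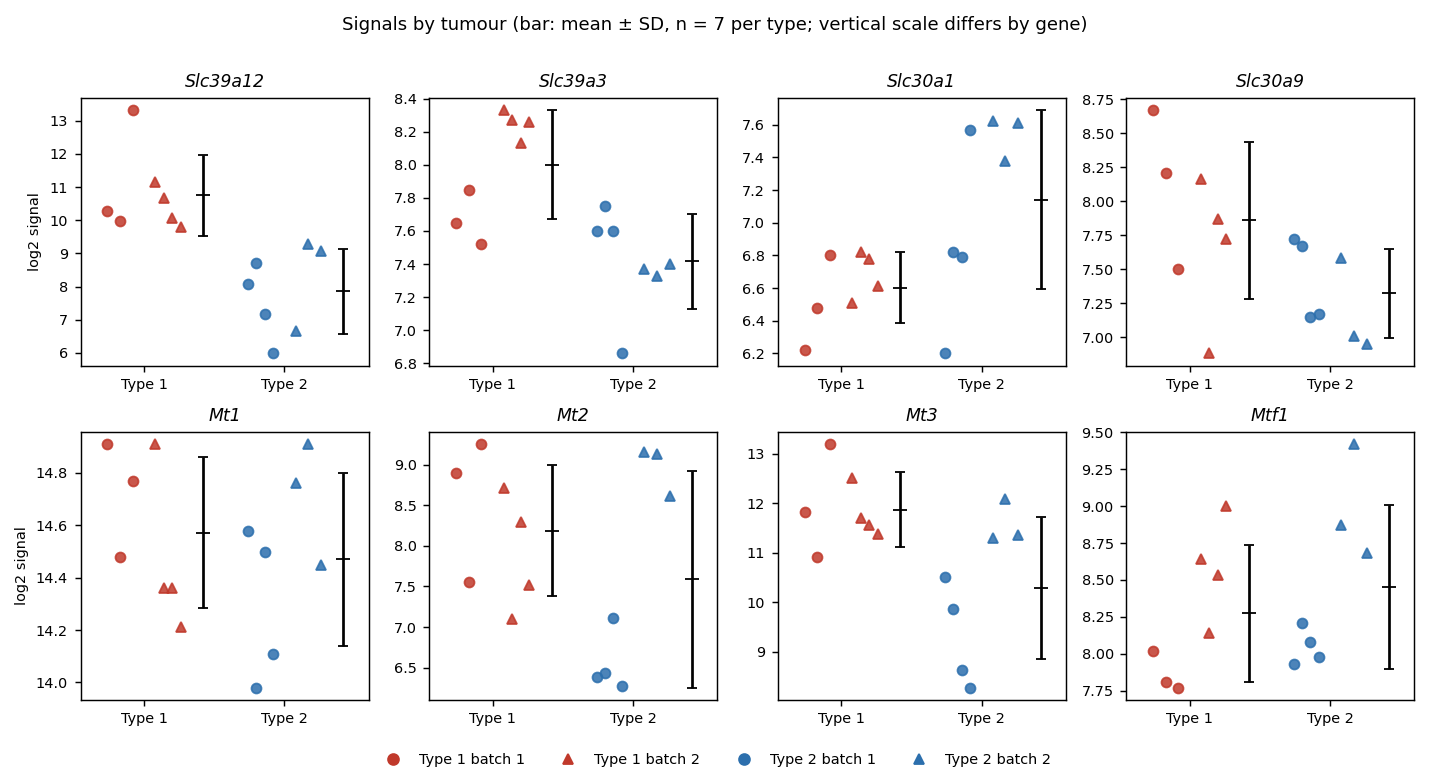
Normalized log2 signal of 8 genes in each tumour, Type 1 on the left and Type 2 on the right of each panel, with batch 1 as circles and batch 2 as triangles. Black bars give the mean and SD of 7 tumours. For Slc39a12 the lowest Type 1 tumour (9.78) lies above the highest Type 2 tumour (9.27). For Mt2 the 4 Type 2 tumours of batch 1 lie at 7.11 or below and the 3 of batch 2 at 8.61 or above.

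Slc39a12 followed the astrocyte markers from tumour to tumour. Of 17 measured astrocyte markers, 5 were higher in Type 1 (Aqp4, Slc1a2, Sox9, Slc4a4 and Ntsr2), S100b was higher in Type 2 and 11 did not pass. The median difference over the list was 0.80. Their mean log2 signal, used in what follows, ranged from 9.88 to 11.45 in Type 1 and from 8.91 to 9.96 in Type 2, and the types overlapped. Their summed signal ranged from 44469 to 126794 in Type 1 and from 26302 to 41540 in Type 2, without overlap. Within Type 1, the batch-centred log2 signal of Slc39a12 correlated with the mean of these markers at r = 0.96 and rho = 0.93 (n = 7; exact permutation test, two-sided, adjusted p = 0.00926 and 0.0315 over 14 relations). Within Type 2 it did so at r = 0.95 and rho = 0.96 (n = 7; exact permutation test, adjusted p = 0.00556 and 0.0315). Centred within type and batch, r over 14 tumours was 0.94. In both types the tumours with the highest Slc39a12 were those with the highest mean log2 signal of astrocyte markers, Type 1 replicate 3 and Type 2 replicate 6. By summed signal the highest Type 2 tumour was replicate 1.

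Over all 14 tumours r was 0.98 and rho 0.97, each with a permutation p of 1e-05, the smallest that 100000 resamples can give (adjusted p = 6e-05 over 6 relations). It was 0.99 in batch 1 and 0.94 in batch 2, and 0.95 without the 2 tumours farthest from the median of Slc39a12. Ranked by this r, Slc39a12 stood at 1 of 11769 genes outside the list, a rank computed after the correlation was seen. The median r of those genes was -0.02, and 10 of them (0.085%) reached 0.9. With the astrocyte mean as a covariate the type difference of Slc39a12 was 0.29 (limma adjusted p = 0.767). Type and batch explained 58.4% of that covariate, and 2 of 11786 genes were called with it. In bulk tissue, a lower share of cells of a type and less RNA per cell cannot be told apart. With the mean of 10 choroid plexus markers, another tissue known to express zinc transporters, Slc39a12 correlated at r = -0.13 and rho = -0.15 (n = 14; permutation adjusted p = 0.618 and 0.736), with r of 0.12 in batch 1 and -0.93 in batch 2. With the choroid plexus mean as a covariate the type difference was 2.90 and was called (limma adjusted p = 0.0229).

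Slc39a12 was also related to other markers in rank order. With neuron markers rho was 0.78 and r 0.69 (n = 14; permutation adjusted p = 0.0445 and 0.124 over 168 relations), with r of 0.69 in batch 1 and 0.71 in batch 2. Within types that r was 0.32 in Type 1 and 0.63 in Type 2. With endothelial markers rho was -0.82 and r -0.63 (n = 14; permutation adjusted p = 0.0206 and 0.177), with r of -0.53 in batch 1 and -0.88 in batch 2. Within types that r was 0.18 in Type 1 and -0.36 in Type 2. Both relations passed in rho and not in r. With microglia and macrophage markers r was 0.41 and rho 0.18 (n = 14; permutation adjusted p = 0.457 and 0.775), which passed in neither. That r was 0.79 in batch 1 and -0.44 in batch 2. Within Type 2 it was 0.12, and within Type 1 it was 0.96, the same as with astrocyte markers. Type 1 alone therefore does not set these 2 lists apart. Type 1 replicate 3 was the highest tumour in both.

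**Figure D2:**
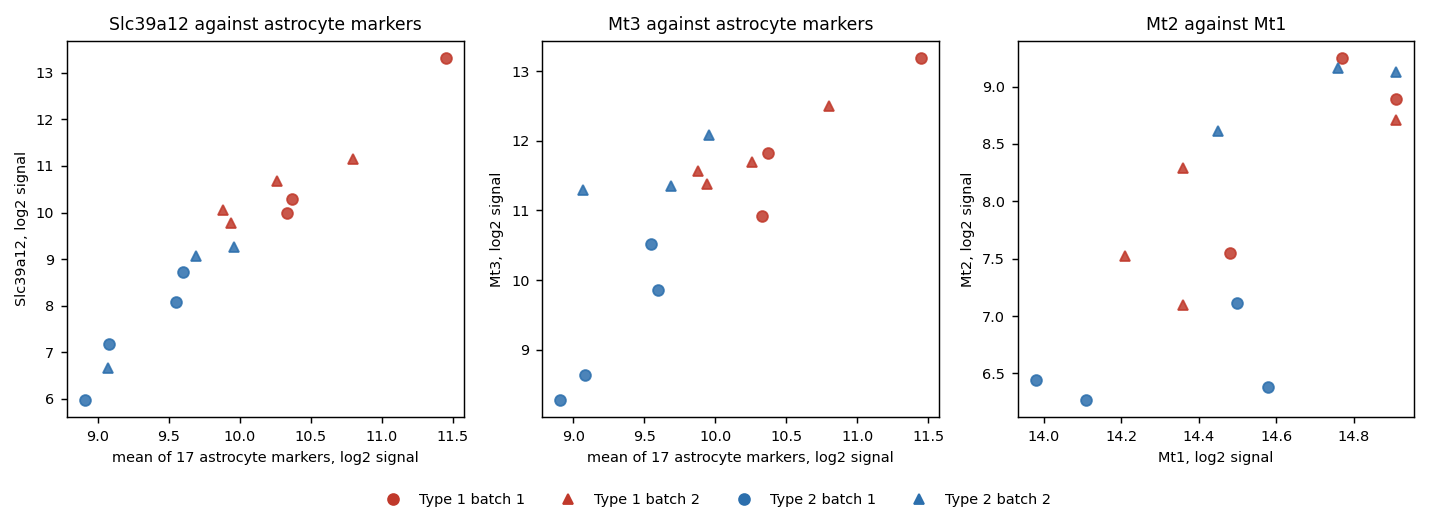
Each point is a tumour, with Type 1 in red, Type 2 in blue, batch 1 as circles and batch 2 as triangles. The left and middle panels plot Slc39a12 and Mt3 (log2 signal) against the mean of 17 astrocyte markers, and the right panel plots Mt2 against Mt1. The points of Slc39a12 lie close to a line in both types, and those of Mt3 scatter more, with Type 2 replicate 5 high for its astrocyte level.

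The other 10 expressed importers did not pass. Slc39a3 (ZIP3) had log2 signals between 7.52 and 8.33 in Type 1 (median 8.13) and between 6.86 and 7.75 in Type 2 (median 7.40). The difference was 0.55 ± 0.17 (SE; limma adjusted p = 0.0773). In batch 2 all Type 1 tumours lay above all Type 2 tumours (0.88), and in batch 1 the types overlapped (0.22). A second expressed probe of the gene differed by 0.13 ± 0.27 (SE). Without Type 2 replicate 2 the first probe was called (0.62, limma adjusted p = 0.0478).

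Slc39a1 (ZIP1), a widely expressed importer, ranged from 6.05 to 7.78 in Type 1 (median 6.44) and from 5.94 to 7.46 in Type 2 (median 6.73), a difference of -0.18 ± 0.22 (SE). Slc39a8 (ZIP8), which also carries manganese, ranged from 5.17 to 7.55 in Type 1 (median 6.27) and from 6.15 to 8.21 in Type 2 (median 7.05). The detected arrays numbered 5 of 7 for Type 1 and 7 of 7 for Type 2, and the difference was -0.47 ± 0.25 (SE; limma adjusted p = 0.294). Slc39a4 (ZIP4), the gut importer whose loss causes acrodermatitis enteropathica in humans, averaged 6.49 in Type 1 and 6.74 in Type 2 (-0.22 ± 0.55, SE), with opposite signs in the batches. Slc39a4 and Slc39a8 each had a second probe that was detected on 0 arrays. Slc39a14 (ZIP14), which carries iron and manganese as well as zinc, was detected in 1 tumour of Type 1 and 2 of Type 2 and averaged 5.23 in Type 1 and 5.22 in Type 2 (0.03 ± 0.17, SE).

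Slc39a6 and Slc39a10 encode ZIP6 and ZIP10, which can form a complex with each other. Slc39a6 averaged 10.86 in Type 1 and 11.18 in Type 2 (-0.23 ± 0.23, SE). Slc39a10 averaged 6.68 in Type 1 and 6.31 in Type 2 (0.37 ± 0.28, SE). Slc39a7 (ZIP7), which releases zinc from the endoplasmic reticulum and Golgi, had 3 expressed probes with differences from -0.12 to -0.07. Slc39a13 (ZIP13), an importer of the secretory pathway, differed by 0.29 and 0.30 on its 2 expressed probes, and Slc39a11 (ZIP11) averaged 10.50 in Type 1 and 10.84 in Type 2 (-0.26 ± 0.24, SE). Over the 11 expressed importers the median difference was -0.12, beside -0.005 over all genes, with 5 positive and 6 negative. Slc39a5 and Slc39a9 were detected on at most 1 array and were not tested.

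Of the 8 expressed exporters 0 passed (limma, adjusted p under 0.05), and 2 had an unadjusted p under 0.05, Slc30a1 and Slc30a9. Of all genes, 21.8% had such an unadjusted p. Slc30a1 (ZnT1) is the exporter of the plasma membrane. Its log2 signals were 6.22, 6.48, 6.80, 6.51, 6.82, 6.78 and 6.61 in Type 1 replicates 1 to 7, and 6.20, 6.82, 6.79, 7.57, 7.62, 7.38 and 7.61 in Type 2 replicates 1 to 7. Type 2 replicates 4 to 7 lay above every Type 1 tumour, Type 2 replicates 2 and 3 lay among them, and Type 2 replicate 1 lay just below. The means were 6.60 ± 0.22 in Type 1 and 7.14 ± 0.55 in Type 2 (SD, n = 7 each). The difference was -0.60 ± 0.20 (SE; limma adjusted p = 0.0954), and the batches gave -0.34 (batch 1) and -0.86 (batch 2). When Type 2 replicate 1 was left out it was -0.72 and was called (limma adjusted p = 0.0325).

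Slc30a9, whose protein exports zinc from mitochondria, ranged from 6.88 to 8.67 in Type 1 (median 7.87) and from 6.95 to 7.72 in Type 2 (median 7.17). The types overlapped, with a difference of 0.59 ± 0.23 (SE; limma adjusted p = 0.158). Slc30a5, Slc30a6 and Slc30a7 encode the ZnT proteins that load zinc into the early secretory pathway, where ZnT5 and ZnT6 act as a pair. All 3 were detected on every array. Slc30a5 averaged 10.78 in Type 1 and 11.03 in Type 2 (-0.19 ± 0.17, SE). Slc30a6 averaged 8.67 in Type 1 and 8.87 in Type 2 (-0.23 ± 0.15, SE), and Slc30a7 9.05 in Type 1 and 9.08 in Type 2 (-0.04 ± 0.18, SE). The second expressed probes of Slc30a5 and Slc30a7 differed by -0.12 ± 0.16 and -0.38 ± 0.23 (SE). None of the 3 genes passed. The median over the 8 exporters was 0.10. It includes Slc30a8, described next, without which the middle value is that of Slc30a7 (-0.04).

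Slc30a3 and Slc30a10 varied widely among the tumours of a type. Slc30a3, the synaptic vesicle transporter gene, was detected in 4 Type 1 and 3 Type 2 tumours. Its signals ran from 4.74 to 8.65 in Type 1 and from 4.69 to 10.22 in Type 2, where the highest value was that of replicate 6. A second probe of Slc30a3 was detected on 0 arrays and read 4.94 in that tumour. The difference on the first probe was 0.27 ± 0.90 (SE). Slc30a10, a manganese exporter gene, was detected in 4 Type 1 and 2 Type 2 tumours. It reached 9.07 in Type 1 replicate 3, the tumour highest in Slc39a12, against a Type 1 median of 5.88 and a Type 2 median of 5.19. The difference was 1.05 ± 0.58 (SE; limma adjusted p = 0.312) on this probe and 0.32 ± 0.21 (SE) on a second expressed probe, detected in 4 Type 1 and 3 Type 2 tumours. Slc30a8, the zinc transporter gene of insulin granules, was detected in 3 Type 1 tumours and 0 Type 2 tumours, at means of 5.31 in Type 1 and 5.05 in Type 2, too near the lowest detected signals for a fold. It passed the detection filter through those Type 1 tumours alone, so its values are a description. Slc30a2 and Slc30a4, exporters into vesicles, were detected on 1 and 2 arrays and were not tested.

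**Figure D3:**
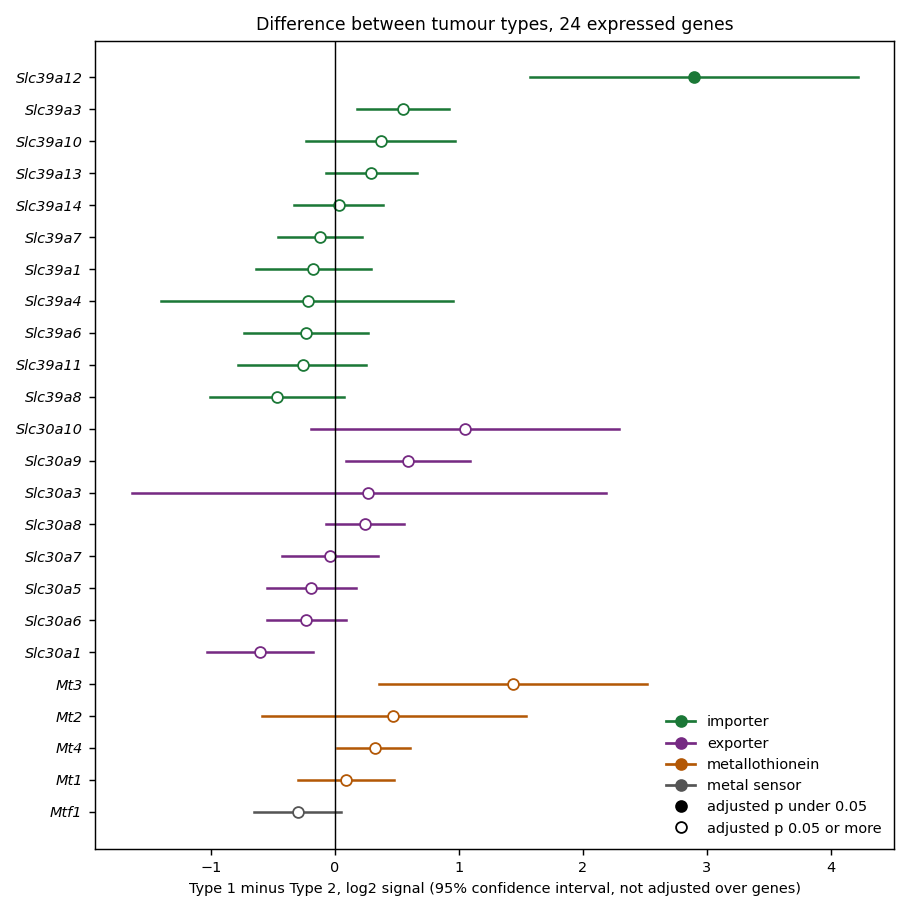
Type 1 minus Type 2 difference in log2 signal for the 24 expressed genes, from limma with batch as a term; lines are 95% confidence intervals, not adjusted over genes. The filled point is Slc39a12 (2.90), the gene with an adjusted p under 0.05. The intervals of Slc39a3, Slc30a9, Slc30a1 and Mt3 also leave out 0 without passing the adjusted test. Mt4 and Slc30a8 passed the detection filter through Type 1 arrays alone, so their points are a description.

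The metallothionein genes lie together on chromosome 8, and Mt1 and Mt2 are classic targets of Mtf1. Mtf1 binds metal response elements, whose core was searched here as TGCACNC and TGCGCNC on both strands. The windows run from 250 bases before to 50 after the gene start and are RefSeq sequences of build GRCm38.p6. Promoters of Mt1, Mt2, Mt3 and Slc30a1 are shown, the first 3 because the levels of these genes are compared across tumours next, and the last because it is the exporter gene that Mtf1 controls. Capitals mark each match, which on the other strand reads as GNGTGCA or GNGCGCA.
Mt1, chr8:94178839-94179138, + strand: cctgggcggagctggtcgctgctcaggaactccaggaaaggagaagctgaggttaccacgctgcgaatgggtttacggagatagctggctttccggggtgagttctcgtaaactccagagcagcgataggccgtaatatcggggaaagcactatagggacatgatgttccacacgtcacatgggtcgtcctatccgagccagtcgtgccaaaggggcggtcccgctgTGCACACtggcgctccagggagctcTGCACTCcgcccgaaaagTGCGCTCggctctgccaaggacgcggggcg
Mt2, chr8:94172368-94172667, + strand: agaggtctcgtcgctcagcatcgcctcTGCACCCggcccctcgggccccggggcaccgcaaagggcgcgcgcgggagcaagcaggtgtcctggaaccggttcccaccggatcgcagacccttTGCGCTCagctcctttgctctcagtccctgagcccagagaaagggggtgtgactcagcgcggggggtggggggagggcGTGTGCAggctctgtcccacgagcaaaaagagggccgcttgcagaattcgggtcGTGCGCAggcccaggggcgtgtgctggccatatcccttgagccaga
Mt3, chr8:94152357-94152656, + strand: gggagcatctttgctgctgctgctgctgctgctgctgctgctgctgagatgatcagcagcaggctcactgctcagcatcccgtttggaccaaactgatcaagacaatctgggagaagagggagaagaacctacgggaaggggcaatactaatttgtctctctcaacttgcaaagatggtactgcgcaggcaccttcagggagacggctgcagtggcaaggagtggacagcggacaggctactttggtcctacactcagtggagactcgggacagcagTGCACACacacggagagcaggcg
Slc30a1, chr1:191906531-191906830, + strand: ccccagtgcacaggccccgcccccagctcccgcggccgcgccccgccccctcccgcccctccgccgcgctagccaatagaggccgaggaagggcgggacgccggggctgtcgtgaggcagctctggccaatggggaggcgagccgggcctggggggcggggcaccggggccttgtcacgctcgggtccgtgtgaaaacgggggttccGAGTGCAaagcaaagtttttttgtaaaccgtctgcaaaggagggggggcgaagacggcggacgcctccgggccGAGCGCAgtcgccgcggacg
Mt1 held 3 matches, all on the gene's strand, Mt2 held 4, Mt3 held 1 and Slc30a1 held 2. Some matches, the one in Mt3 among them, lie after the gene start. Of all 32851 promoters of this length 25.7% held at least 1 match, 7.11% at least 2 and 1.97% at least 3. Among 31 promoters of the genes sought, 16 held at least 1 and 6 at least 2. Some genes had 2 promoters among these, and Slc39a2 and Tmem163 were included. No promoter of Slc39a4, Slc39a6, Slc39a14 or Slc30a8 was available. Those of Slc30a4 and Slc30a10, not shown, held 3 each, and that of Slc30a2, also not shown, held 2. The promoters of Mtf1 and Slc39a12 held 0. A match is a run of letters and was not tested as a site.

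Mt3 was the metallothionein with the largest difference between the types, and it did not pass. Its log2 signals were 11.83, 10.92, 13.19, 12.50, 11.70, 11.57 and 11.38 in Type 1 replicates 1 to 7. In Type 2 replicates 1 to 7 they were 10.52, 9.86, 8.63, 8.28, 11.29, 12.08 and 11.35. The 4 Type 2 tumours of batch 1 lay below every Type 1 tumour, and the 3 of batch 2 lay among them. The means were 11.87 ± 0.75 in Type 1 and 10.29 ± 1.43 in Type 2 (SD, n = 7 each). The difference was 1.44 ± 0.50 (SE; limma adjusted p = 0.116), with 2.66 in batch 1 and 0.22 in batch 2.

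Mt3 followed the astrocyte markers as well, the only other member to do so past the test. Across 14 tumours it correlated with their mean at r = 0.91 and rho = 0.90 (permutation test, adjusted p = 0.00168 and 0.0042 over 168 relations of 24 members with 7 cell type lists, computed after the first correlations were seen). The r was 0.97 in batch 1, 0.81 in batch 2 and 0.80 without the 2 tumours farthest from the median of the markers. It was 0.92 in Type 1 and 0.81 in Type 2 (n = 7 each; exact permutation adjusted p = 0.0222 and 0.0438), with rho of 0.93 and 0.75 (exact permutation adjusted p = 0.0315 and 0.133). By r, Mt3 ranked 8 of 11769 genes. With the astrocyte mean as a covariate the type difference turned to -0.49 (limma adjusted p = 0.652). Mt3 and the microglia and macrophage markers correlated at r = 0.62 and rho = 0.42 (n = 14; permutation adjusted p = 0.195 and 0.461). Within types that r was 0.9 in Type 1, close to its r with astrocyte markers there, and 0.56 in Type 2.

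Mt2 showed opposite differences in the batches. Its log2 signals were 8.89, 7.55 and 9.25 in the Type 1 tumours of batch 1, against 6.38, 6.44, 7.11 and 6.27 in the Type 2 tumours of batch 1. In batch 2 they were 8.71, 7.10, 8.29 and 7.52 in Type 1 tumours, against 9.16, 9.13 and 8.61 in Type 2 tumours. Type 1 lay above Type 2 without overlap in batch 1, and mostly below it in batch 2. The difference was 2.01 ± 0.42 (SE) in batch 1 and -1.06 ± 0.39 (SE) in batch 2, and 0.47 ± 0.50 (SE; limma adjusted p = 0.635) over both. The test of the change between batches gave -3.07 ± 0.61 (SE; limma adjusted p = 0.0849), the 27th lowest p of 11786. It passed without Type 1 replicate 2 (-3.58, limma adjusted p = 0.0322) and with array weights (-3.27, limma adjusted p = 0.0495).

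Mt1 was among the brightest probes of every array. Its log2 signals ran from 14.21 to 14.91 in Type 1 (median 14.48) and from 13.98 to 14.91 in Type 2 (median 14.50). Its raw signal was 60.4% to 99.4% of the brightest probe of the same array, and at most 139 probes were brighter on any array. In Type 1 replicates 1 and 4 and Type 2 replicate 6 only 1 probe was brighter. Quantile normalization gives equal ranks equal values, so all 3 had 14.91, from raw signals of 33548, 33388 and 29259. Among these 3 tumours the normalized values cannot show a difference, and near this ceiling they may understate differences between tumours. The type difference was 0.09 ± 0.18 (SE; limma adjusted p = 0.827), with 0.43 in batch 1 and -0.25 in batch 2. Mt4, known from stratified epithelium, was detected in 3 Type 1 tumours and 0 Type 2 tumours, with signals of 4.73 to 5.76 in Type 1 (median 5.23) and 4.60 to 5.29 in Type 2 (median 4.90). It passed the detection filter only through Type 1 replicates 1 to 3, all of batch 1, so its difference of 0.32 is a description, with no test and no fold. The median over the 4 metallothioneins was 0.40, with 1.24 in batch 1 and -0.04 in batch 2. Without Mt4 the middle value over both batches is that of Mt2 (0.47).

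Mt1, Mt2 and Mt3 were compared from tumour to tumour. The Mt1 values include those near the ceiling given above, with Type 1 replicates 1 and 4 and Type 2 replicate 6 all at 14.91. Mt1 and Mt2, centred within batch, correlated at r = 0.79 and rho = 0.77 over 14 tumours (permutation adjusted p = 0.00246 and 0.00552 over 6 relations). Their r was 0.80 in each batch, 0.85 in Type 1 and 0.72 in Type 2 (n = 7 each; exact permutation adjusted p = 0.0407 and 0.124 over 14 relations), and 0.73 without the 2 tumours farthest from the median of Mt1. Mt1 and Mt3 correlated at r = 0.63 and rho = 0.70 (permutation adjusted p = 0.0216 and 0.0149), with 0.71 in batch 1, 0.66 in batch 2, 0.79 in Type 1, 0.54 in Type 2 and 0.59 without the 2 farthest tumours. Mt2 and Mt3 correlated at r = 0.71 and rho = 0.56 (permutation adjusted p = 0.00804 and 0.0579), so the call was lost in rho. That relation was 0.84 in batch 1 and 0.21 in batch 2, and 0.40 without Type 1 replicates 1 and 3, so over all tumours it rests on those tumours and on batch 1. Within Type 1 it was r = 0.90 and rho = 0.89 (n = 7; exact permutation adjusted p = 0.00926 and 0.0422), and within Type 2 r was 0.48 (n = 7; exact permutation adjusted p = 0.373). Centring used the batch mean of both types together, so an r within a type keeps that type's own difference between batches. Centred within type and batch, r over 14 tumours was lower, and it was not tested. It was 0.67 for Mt1 and Mt2, 0.48 for Mt1 and Mt3 and 0.45 for Mt2 and Mt3. Slc39a12 and Slc39a14 correlated at r = -0.35 and rho = -0.08 (permutation adjusted p = 0.26 and 0.792). Within Type 2 r was -0.87 and rho -0.71 (n = 7; exact permutation adjusted p = 0.0233 and 0.154), and within Type 1 r was -0.36 (n = 7; exact permutation adjusted p = 0.547). Slc39a14 was detected in 1 Type 1 and 2 Type 2 tumours, so most of its values here are undetected signals. Its highest Type 2 signal (5.89) was that of replicate 4, the tumour lowest in Slc39a12.

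Mtf1 was detected on all arrays by its brightest probe. That probe averaged 8.27 ± 0.46 in Type 1 and 8.45 ± 0.55 in Type 2 (SD, n = 7 each), with medians of 8.14 in Type 1 and 8.21 in Type 2 and a difference of -0.30 ± 0.16 (SE; limma adjusted p = 0.305). The other 2 expressed probes differed by 0.11 ± 0.20 and -0.33 ± 0.17 (SE), so the probes of Mtf1 did not share a sign. Of the 7 member genes with several expressed probes, Mtf1 was the only one with opposite signs.

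**Figure D4:**
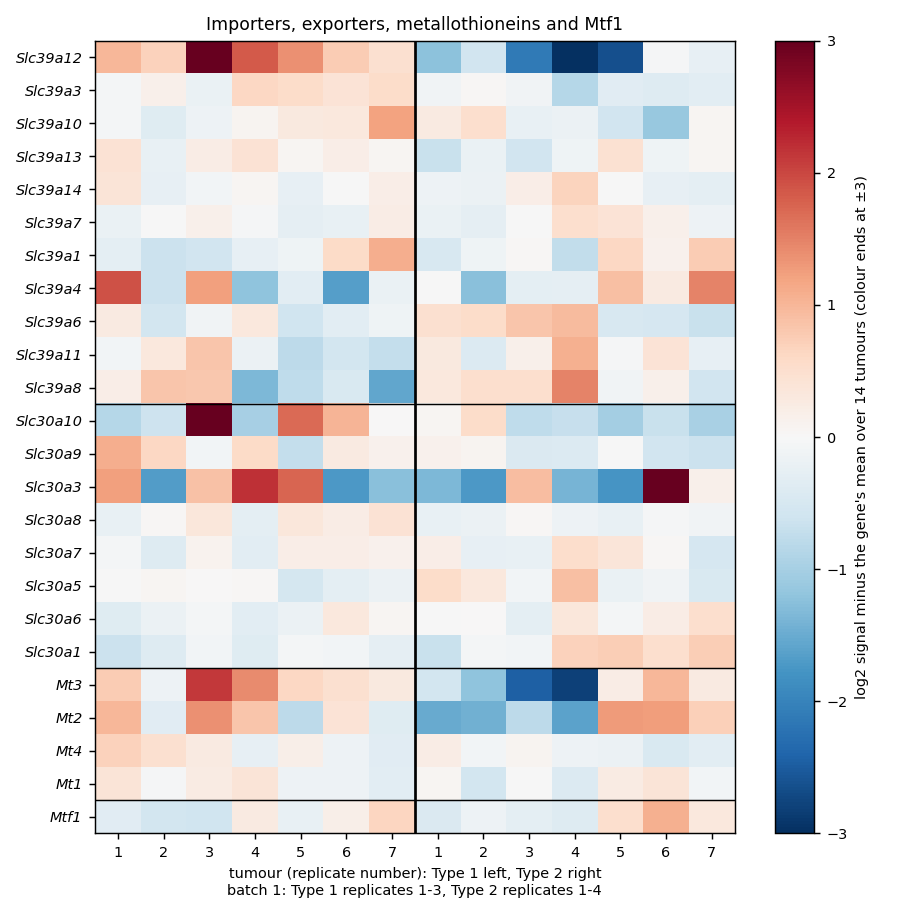
Log2 signal of the 24 expressed genes in each tumour, minus the gene's mean over 14 tumours; Type 1 tumours are the left 7 columns and Type 2 tumours the right 7, with genes grouped by role. Slc39a12 is above its mean in all Type 1 tumours. Type 1 replicate 3 is high in Slc39a12, Slc30a10, Mt2 and Mt3, and Type 2 replicates 3 and 4 are low in Slc39a12, Mt2 and Mt3.

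Within batch 1 the types did not overlap for 5 members, Mt4 among them, beside 18.6% of all genes, and within batch 2 for 5 members, beside 17.4%. Of the 24 members, 14 had the same sign in both batches, beside 54.7% of all genes. These 14 include Mt4 and Slc30a8, which passed the detection filter through Type 1 arrays alone. When the change of the type difference between batches was tested, 0 members and 0 genes passed (limma, adjusted p under 0.05; 0%). At an unadjusted p under 0.05 there were 6 members, beside 1931 genes (16.4%): Mt2 and Mt3, and the importers Slc39a4, Slc39a6, Slc39a10 and Slc39a3. Slc39a4 differed by 1.29 ± 0.59 (SE) in batch 1 and -1.74 ± 0.43 (SE) in batch 2. Slc39a6 differed by -0.84 and 0.38, and Slc39a10 by -0.29 and 1.03. With all tumours and the main settings none of these changes passed the adjusted test. Other settings with all tumours did call some of them, as given under processing below. Leaving out Type 1 replicate 2 gave 36 genes, among them Mt2 and Slc39a4.

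**Figure D5:**
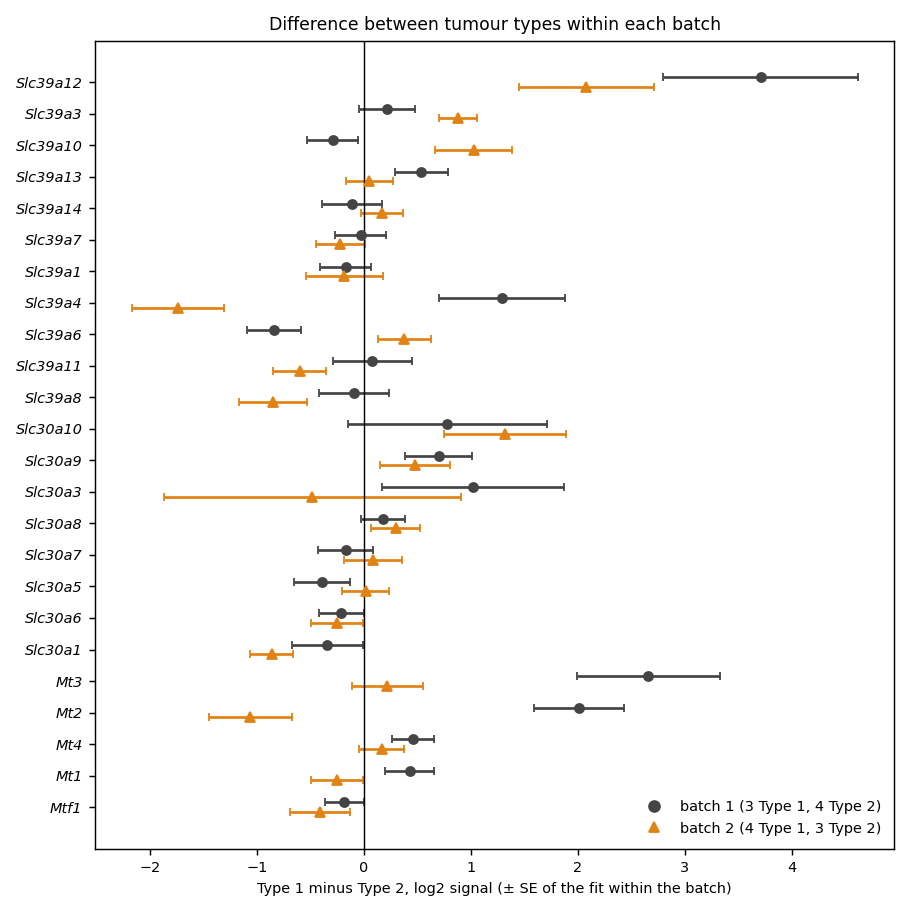
Type 1 minus Type 2 difference in log2 signal within batch 1 (circles; 3 Type 1 and 4 Type 2 tumours) and within batch 2 (triangles; 4 Type 1 and 3 Type 2 tumours), with the SE of the limma fit in that batch. Slc39a12 is positive in both (3.71 and 2.08). Mt2 and Slc39a4 lie on opposite sides of 0.

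Between the batches, 4 members passed, beside 1258 genes (10.7%). Mtf1 (0.82 ± 0.16, SE; limma adjusted p = 0.00567) and Slc39a1 (0.83 ± 0.22, SE; limma adjusted p = 0.0255) were higher in batch 2. For Mtf1 this holds for the brightest of its 3 expressed probes, and with the mean of its detected probes Mtf1 was not called. Slc39a8 (-1.26 ± 0.25, SE; limma adjusted p = 0.00609) was lower in batch 2. Mt4, the other gene called, was detected only on 3 arrays of batch 1 and passed the filter through that batch, so its lower signal in batch 2 (-0.48) is a description. Without background correction it was -0.14 and not called (limma adjusted p = 0.106). In the authors' processed values 0 members and 0 genes passed this test. No source states how those values treat batch, so this 0 cannot show whether the differences above are robust. With median scaling, under which the median batch difference of all genes was -0.39, against -0.02 otherwise, Mtf1 (0.25) and Slc39a1 (0.39) lost their call.

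Other metal and stress genes were called 1 of 12, 0 of 19, 1 of 12 and 1 of 10 times in the lists that follow, beside 4.64% of all genes. Of 12 measured genes of other zinc and copper handling, the copper transporter gene Slc31a2 was lower in Type 1 and 11 did not pass (median -0.18). Slc31a2 averaged 6.24 in Type 1 and 7.28 in Type 2 (-1.06 ± 0.20, SE; limma adjusted p = 0.0128). Of 19 measured iron and manganese genes 0 passed (median -0.20; limma, adjusted p under 0.05).

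Metallothionein genes are also known to respond to glucocorticoids and oxidative stress. Of 12 glucocorticoid response genes, Tsc22d3, a glucocorticoid-induced transcription regulator, was higher in Type 1 (0.90 ± 0.23, SE; limma adjusted p = 0.041) while 11 did not pass. The median of the list was 0.32. Of 10 measured oxidative stress genes, the cystine transporter gene Slc7a11 was higher in Type 1 (1.43 ± 0.36, SE; limma adjusted p = 0.0402) and 9 did not pass (median 0.00). Markers of other cells that moved with type were the neuronal genes Rbfox3 and Kcnc1, higher in Type 1 (2 of 11 measured). Tie1 and Vwf of 13 endothelial genes and Lum and Col1a1 of 6 fibroblast genes were higher in Type 2, and so were Cnp, Cldn11 and Ugt8a of 8 oligodendrocyte genes. Of 10 choroid plexus and 11 microglia and macrophage genes 0 passed (limma, adjusted p under 0.05), with medians of 0.25 and 0.06. Summed neuronal signals ran from 4953 to 15609 in Type 1 and from 1488 to 13695 in Type 2, and summed endothelial signals from 5680 to 12294 in Type 1 and from 11018 to 18854 in Type 2. By mean log2 signal the endothelial markers did not overlap, with 7.52 to 8.43 in Type 1 and 8.51 to 8.98 in Type 2. The part of neuronal, endothelial, fibroblast, oligodendrocyte and microglial cells in the differences above was not tested.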

How the data were processed

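Total RNA of 14 tumours was measured on single-colour Illumina bead arrays. Per the file headers, the deposited signal intensities were not normalized and each of 45281 probes also had a deposited detection p-value. The submitters' processing notes name BeadStudio, with no version. The authors' processed log2 values of 38502 probes, whose normalization and centring no source states, served as an alternative.

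The neqc function of limma 3.58.1 (R 4.3.3) did the normexp background correction, using detection p-values and an offset of 16, then quantile normalization and log2. The platform annotation named the probes, updated through Entrez identifiers (31976 of 32034 named probes matched GRCm38.p6). The expressed probe with the highest mean stood for a gene. Types were compared by limma with batch as a term, with Benjamini-Hochberg adjustment over 11786 genes and calls at an adjusted p under 0.05. The interaction and batch terms were tested alike. Correlations used values centred on the batch mean of both types together, also for r within a type. Replicate numbers follow the order of deposit and pair nothing. Separate tumours were the replicates, and p-values measure the spread between them.

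Members, lists and the naming rule were chosen with earlier results of these data known. The rule accounts for every member and gives full values for called genes, the 5 next by p, metallothioneins, Mtf1 and genes called between batches. Slc39a4, Slc39a6 and Slc39a10 and the exporters Slc30a3 and Slc30a10 were given more values after these were seen. Alternatives covered the batch term, chip, each batch, background, scaling, filters, probes, weights, 2 marker covariates and left-out tumours. The model was tested on data simulated with changes in 200 of 11786 genes. It called 56% of changes of log2 size 1, 86% of size 2 and 100% of sizes 3 and 4. Of its calls, 4.47% were unchanged genes. A member with a difference of log2 size 1 or less can therefore go uncalled. Some of the design is not reported here.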

Additional observations from a re-analysis of the deposited data

Results flagged for a closer look

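In 28 member genes, 56 sets of 7 tumours were examined for a tumour far from the others of its type, and 3 were found; chance alone marks about 5% of such sets. Slc39a12 was 13.32 in Type 1 replicate 3, whose nearest Type 1 tumour had 11.14, a gap of 0.61 of the range of that type. Without this tumour the type difference was 2.33 and kept its call. Slc30a2, below the filter, was 7.45 in Type 2 replicate 3, the only array that detected it, against at most 4.90 in the other Type 2 tumours. Slc39a9, also below the filter, was 5.64 in Type 1 replicate 5, the only array that detected it, against at most 5.22 in the other Type 1 tumours.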

How the results depend on the processing

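With all tumours and the main settings, 1 member was called between the types. The count was 0 in batch 1 alone, in batch 2 alone, with the astrocyte covariate and without the 2 tumours high in choroid plexus markers. It was 3 at an adjusted p under 0.1 (9.63% of all genes passed that) and ran from 1 to 2 with each tumour left out, 2 without Type 2 replicate 1 or 2. Slc39a12 kept its sign in 29 of 29 alternatives, with limma adjusted p between 0.0157 and 0.767. The interaction count of 0 was 1 with array weights and 0 to 2 with each tumour left out. It was 7 with chip as a random block, where a chip correlation of -0.242 was estimated and 2603 genes were called. That fit cannot tell chip from type and batch. The batch count of 4 was 9 with median scaling and 2 without the 2 tumours high in choroid plexus markers. With the mean of detected probes the count stayed at 4, with Slc30a5 in place of Mtf1. With each tumour left out it was 2 to 4, 2 without Type 2 replicate 7. It was 0 with the authors' values, whose treatment of batch is not stated.

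Signs turned for Mt1 (-0.25 in batch 2, -0.27 with the astrocyte covariate), Mt2 (-1.06 and -0.74), Mt3 (-0.49 with that covariate) and Slc39a1 (0.13 with it). The change of Slc39a3 between batches was -0.21 with the mean of its probes. None of these differences was called in either fit, and the cause was not tested. The group medians turned sign too. The importer median of -0.12 was 0.05 in batch 2 alone, 0.03 with no detection filter and 0.13 with the astrocyte covariate. The exporter median of 0.10 was -0.02 without background correction, -0.04 with detection on 7 or more arrays, -0.06 without the 2 tumours high in choroid plexus markers, and -0.07 to 0.14 with each tumour left out (-0.05, -0.03 and -0.07 without Type 1 replicate 1, Type 1 replicate 3 and Type 2 replicate 5). The metallothionein median of 0.40 was 1.24 in batch 1 alone, -0.04 in batch 2 alone and -0.38 with the astrocyte covariate. No paired analysis was possible because replicate numbers follow the order of deposit and pair no tumours.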

Other observations

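In the family of 168 relations of members with cell type markers, 2 passed in both r and rho and 5 in rho alone. Of these 5, those of Slc39a12 with neuron and endothelial markers are described above. Slc39a3 correlated with endothelial markers at r = -0.77 and rho = -0.84 (n = 14; permutation adjusted p = 0.0846 and 0.0196), with -0.59 in batch 1, -0.86 in batch 2 and -0.71 without the 2 tumours farthest from the median of the markers. Slc39a4 correlated with microglia and macrophage markers at r = 0.70 and rho = 0.78 (n = 14; permutation adjusted p = 0.124 and 0.0449), with 0.68 in batch 1, 0.75 in batch 2 and 0.67 without the 2 farthest tumours.

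The synaptic zinc transporter gene Slc30a3 correlated with oligodendrocyte markers at r = 0.65 and rho = 0.78 (n = 14; permutation adjusted p = 0.176 and 0.0445), with 0.71 in batch 1, 0.63 in batch 2 and 0.57 without the 2 farthest tumours. With neuron markers it correlated at r = 0.71 and rho = 0.66 (n = 14; permutation adjusted p = 0.124 and 0.195), which passed in neither, with 0.61 in batch 1, 0.91 in batch 2 and 0.71 without the 2 farthest tumours.

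Over the 14 tumours the SD of Slc39a12 was 1.92, the 50th largest of 11786 genes. That of Slc30a3 was 1.81, the 73rd largest. Mt3 had an SD of 1.37, the 314th largest.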
